A study of Mus musculus with 24 samples.

Results

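The set examined here was neuroglobin (Ngb), cytoglobin (Cygb) and the adult blood globins Hba-a1, Hba-a2, Hbb-bs and Hbb-bt, 6 of the 51826 genes in the deposited count table. Ngb was chosen by its measured values in these libraries, which had shown a genotype by training pattern in RNA-Seq 2, Cygb as the other globin of non-blood cells, and the blood globins as a measure of blood left in the tissue. Neuroglobin and cytoglobin are heme proteins that bind oxygen outside the blood, neuroglobin in neurons and cytoglobin in fibroblast-like cells and some neurons. The alpha- and beta-globins make up hemoglobin, and their transcripts in brain tissue come largely from red blood cells and reticulocytes in the vessels. The alpha-globin copies are near-identical to each other, as are the beta-globin copies, so that reads cannot always be told apart.

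The libraries came from the dorsal hippocampus of male mice on the C57BL/6j strain, aged 2 to 4 months, that were either wild type (WT) or homozygous for CBP KIX/KIX. These are germline point mutations in the KIX domain of CREB-binding protein, so all cells carried them during development and adult life, and effects on the hippocampus itself cannot be separated from effects elsewhere. The study's methods state that mice of both sexes were used, and do not give the sex for each library. RNA-Seq 1 was total RNA depleted of ribosomal RNA, from WT homecage mice, WT mice trained in the Morris water maze (MWM) and CBP KIX/KIX mice trained in the MWM, with 3 libraries each. RNA-Seq 2 had 3 WT homecage libraries and 4 libraries each of WT mice after contextual fear conditioning (CFC), CBP KIX/KIX mice after CFC and CBP KIX/KIX homecage mice. RNA-Seq 2 was polyA selected, by the study's methods for homecage and CFC mice and by the labels for all but the CBP KIX/KIX homecage libraries, whose labels gave no library type. Library type, task and run changed together between the experiments, and their effects cannot be told apart.

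Counts per library ran from 38174044 to 65709282 in RNA-Seq 1 (n = 9) and from 15385836 to 46056290 in RNA-Seq 2 (n = 15). A floor of 3 counts lay at 0.0448 to 0.0754 counts per 1000000 (CPM) for the libraries of RNA-Seq 1 and 0.0655 to 0.194 for those of RNA-Seq 2, and covers counting error only. All 6 members passed the filter on low counts in each of the 9 comparisons. Counts per library of Ngb were 105 to 416 in RNA-Seq 1 and 26 to 219 in RNA-Seq 2, those of Cygb 1902 to 3898 and 577 to 2855. No pair of libraries within a group was a copy of another, since the chi-square per gene over the 30 pairs was at least 2.59.

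Crebbp, which carries the mutations, ranged over 137 to 212 CPM in the first experiment and 65.2 to 78.0 in the second. Its mean ± SD was 177 ± 32.9 in WT homecage, 164 ± 24.7 in WT MWM and 153 ± 13.1 in CBP KIX/KIX MWM libraries. In RNA-Seq 2 it was 73.9 ± 4.74 in WT homecage, 71.8 ± 4.50 in WT CFC, 74.5 ± 4.29 in CBP KIX/KIX CFC and 70.4 ± 5.11 in CBP KIX/KIX homecage libraries. Gene counts carry no base changes, so genotype could not be checked by them. Hippocampal markers were present in every library, with 8 of 8 in the table, sums of 1207 to 1597 CPM (RNA-Seq 1) or 883 to 1025 (RNA-Seq 2), and Neurod6 as the most abundant per kb (75.5 CPM per kb). Fos was 6.89 to 8.88 CPM in WT homecage, 14.7 to 18.8 in WT MWM and 10.7 to 13.3 in CBP KIX/KIX MWM libraries. In RNA-Seq 2 it was 3.44 to 5.18 in WT homecage, 24.8 to 33.6 in WT CFC and 17.995 to 24.9 CPM in CBP KIX/KIX CFC libraries.

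The library labelled CBP KIX/KIX homecage 3 went against its label. Its Fos level was 117 CPM against 2.86 to 5.18 in the WT homecage libraries and CBP KIX/KIX homecage library 1, Arc 617 against 71.8 to 77.7, Egr1 442 against 69.6 to 81.1 and Npas4 131 against 6.60 to 10.2. CBP KIX/KIX homecage libraries 2, 3 and 4 also stood apart from the 12 other RNA-Seq 2 libraries, with Npy at 82.2, 114 and 167 CPM against 29.3 to 47.7, and Bdnf at 67.9, 130 and 127 CPM against 36.6 to 52.2. Hmox1 was 6.72, 6.99 and 10.1 CPM in them against 4.12 to 5.28. In RNA-Seq 1, WT homecage library 3 stood apart from its group, with a chi-square per gene of 81.3 and 71.7 against its mates, which gave 14.5 with each other, and Ttr at 1311 CPM against 72.3 and 81.5. Comparisons that used the CBP KIX/KIX homecage libraries are given with all libraries and with libraries 2, 3 and 4 left out, which leaves a single CBP KIX/KIX homecage library.

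Over all genes, edgeR called 610 of 21489 (2.84%) by genotype after learning with both experiments pooled, 254 higher and 356 lower in CBP KIX/KIX, and 231 of 22038 (1.05%) by learning in WT, 89 higher and 142 lower, though most were higher with TMM (88 and 47 lower), DESeq2 (612 and 250) or GC normalization (46 and 18). At an unadjusted p under 0.05 there were 3909 and 3807, and DESeq2 called 933 and 862. Single libraries moved the genotype count to 313 (without RNA-Seq 1 WT MWM 1), 317 and 233 (without CBP KIX/KIX MWM 1 and 2), 385 (without WT CFC 1), 1022 and 389 (without CBP KIX/KIX CFC 1 and 4). The learning count went to 36, 55 and 2274 without RNA-Seq 1 WT homecage 1, 2 and 3, the last being 10.1% of 22494, and to 115, 86 and 76 without WT MWM 1, 2 and 3. It went to 58 and 603 without RNA-Seq 2 WT homecage 1 and 3, and to 471, 100 and 89 without WT CFC 1, 3 and 4. With libraries of the same number taken as a block the counts were 2778 (12.9%) by genotype and 912 (4.14%) by learning.

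Within RNA-Seq 1, learning in WT gave 3 of 22276 genes (0.0135%; 2418 at an unadjusted p under 0.05, 80 by DESeq2), and genotype after MWM gave 0 of 22276 by edgeR (0%; 1285 at an unadjusted p under 0.05, 7 by DESeq2). Without WT homecage 3 the learning count was 2418 of 22563 (10.7%), without WT homecage 1 and 2 it was 0 and 7, and without WT MWM 1 or 2 it was 0. Without the filter on low counts it was 131 of 35895 (0.365%). These comparisons share the WT MWM libraries.

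Within RNA-Seq 2, genotype in homecage gave 2 of 18682 genes (0.0107%; 1144 at an unadjusted p under 0.05, 59 by DESeq2), and 0 of 19442 (0%; 451 at an unadjusted p under 0.05) with the CBP KIX/KIX homecage libraries 2, 3 and 4 left out. It was 0, 0 and 1 without WT homecage 1, 2 and 3, and 7, 0 and 0 without CBP KIX/KIX homecage 1, 2 and 3. Learning in WT gave 0 of 18851 by edgeR (0%; 450 at an unadjusted p under 0.05, 0 by DESeq2), and 20 of 20084 (0.0996%), all higher after CFC, with those libraries left out of the shared fit. Learning in CBP KIX/KIX gave 0 of 18851 by edgeR (0%; 2457 at an unadjusted p under 0.05) against 300 (1.59%) by DESeq2, and 8 of 20084 (0.0398%) with the libraries left out, where a single homecage library remained and the spread came from the other groups. It gave 999 of 18332 (5.45%) without CBP KIX/KIX homecage 1 and 16 without homecage 3.

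Genotype after CFC gave 2 of 18851 genes (0.0106%; 441 at an unadjusted p under 0.05, 4 by DESeq2), both lower in CBP KIX/KIX, and 2 of 20084 (0.00996%) with the 3 libraries left out. The genotype by training interaction gave 0 of 18851 by edgeR (0%; 903 at an unadjusted p under 0.05, 1 by DESeq2), 0 of 20084 (0%; 316 at an unadjusted p under 0.05) with the libraries left out and 63 of 18332 (0.344%) without CBP KIX/KIX homecage 1. The RNA-Seq 2 comparisons share groups and are not independent. These p-values measure the spread between these samples.

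Of the activity-induced genes, 6 of 6 rose after learning in WT with both experiments pooled, among them Fos (log2 fold change 1.93, adjusted p 0.000438, 7 of 7 libraries) and Arc (1.28, adjusted p 4.8e-05, 7 of 7). Their median was 1.03 against -0.03 over all genes. Fos (-0.51, adjusted p 0.000655), Junb (-0.31, adjusted p 0.000655) and Nr4a1 (-0.31, adjusted p 0.00607) fell by genotype after learning, each in 7 of 7 libraries, with a median over the 6 of -0.23. With CBP KIX/KIX homecage libraries 2, 3 and 4 left out, 6 of 6 rose after CFC in WT, which did not pass the test with all libraries. For learning in CBP KIX/KIX the median of these 6 genes was -0.20 with all libraries. It was 1.05 with those 3 left out, against a single homecage library. Of the hippocampal markers, Prox1 rose (0.21, adjusted p 0.0421, 6 of 7) and Fibcd1 fell (-0.30, adjusted p 0.0222, 6 of 7) by genotype after learning. Spink8 rose after learning in WT (0.33, adjusted p 0.0447, 6 of 7). The medians of those 8 genes were 0.01 and -0.00.

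Ngb lies at chr12:87097531-87102539 on the minus strand with 1723 exon bases, and Cygb at chr11:116645595-116654313 on the minus strand with 2331 exon bases, an exon of which overlaps an exon of Prcd on the other strand. Prcd gave at most 2.81 CPM in RNA-Seq 1 and 4.59 CPM in RNA-Seq 2. The strand setting of the counting was not stated. The alpha-globins lie at chr11:32283511-32284465 and chr11:32296489-32297298 on the plus strand, the beta-globins Hbb-bs and Hbb-bt at chr7:103826534-103828096 and chr7:103812524-103813996 on the minus strand. Windows of 100 bases shared with the paralog made up 63.3% of the windows of Hba-a1, 79.5% of Hba-a2, 49.7% of Hbb-bs and 54.8% of Hbb-bt, and 0% of Ngb and Cygb. The split of reads between the paralogs is therefore uncertain, and sums over them are firmer.

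Per kb of exon, the order in WT homecage libraries of RNA-Seq 1 was Hba-a1 (148 CPM per kb), Hbb-bs (79.7), Hba-a2 (79.1), Hbb-bt (27.4), Cygb (26.9) and Ngb (3.51). Neighbours in this order overlapped except Hba-a2 with Hbb-bt and Cygb with Ngb. In WT homecage libraries of RNA-Seq 2 it was Cygb (26.8), Hbb-bs (21.5), Hba-a1 (11.6), Hba-a2 (4.67), Hbb-bt (4.14) and Ngb (2.70), where Cygb overlapped Hbb-bs, Hba-a2 overlapped Hbb-bt and Hbb-bt overlapped Ngb, and the other neighbours were apart. Ngb was the lowest of the 6 in all 7 groups. The ratio of WT homecage means between RNA-Seq 1 and RNA-Seq 2 was 12.8 for Hba-a1, 17.0 for Hba-a2, 3.72 for Hbb-bs and 6.62 for Hbb-bt, but 1.30 for Ngb and 1.01 for Cygb.

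In RNA-Seq 2, Ngb was 5.54, 4.99 and 3.43 CPM in WT homecage libraries and 3.77, 3.19, 3.40 and 1.86 in WT CFC libraries. In CBP KIX/KIX it was 1.93, 2.23, 1.58 and 2.58 in homecage and 4.82, 3.60, 4.40 and 4.77 CPM in CFC libraries. The CBP KIX/KIX homecage libraries were all below the WT homecage and the CBP KIX/KIX CFC libraries, without overlap, and overlapped only with the lowest WT CFC library. WT CFC overlapped with WT homecage and with CBP KIX/KIX CFC libraries. The mean after CFC over that in homecage was 0.657 in WT and 2.12 in CBP KIX/KIX, and the mean in CBP KIX/KIX over that in WT was 0.446 in homecage and 1.44 after CFC. With libraries 2, 3 and 4 left out, CBP KIX/KIX homecage library 1 alone gave 2.28 for CFC over homecage and 0.414 for CBP KIX/KIX over WT. Ngb was chosen for this pattern, so it was not tested in RNA-Seq 2 or in the pooled comparisons. Thalamic and hypothalamic markers, whose tissue lies next to the hippocampus, summed to 55.9, 43.3, 47.0 and 68.2 CPM in the CBP KIX/KIX homecage libraries, against 67.8 to 74.9 in WT homecage and 67.9 to 77.1 in CBP KIX/KIX CFC libraries. The most abundant of them, Prkcd, was 30.7, 14.4, 20.9 and 39.2 CPM in the CBP KIX/KIX homecage libraries. Without it the sums were 25.2 to 28.96 CPM there and overlapped those of CBP KIX/KIX CFC (21.6 to 38.0) but not WT homecage libraries (30.4 to 34.5). By genotype in homecage 5 of the 9 markers tested were higher and 4 lower, with a median of 0.01 against -0.00 over all genes, and with libraries 2, 3 and 4 left out 2 were higher and 7 lower, with a median of -0.31 against -0.00. The library lowest in Ngb was the lowest in these markers in WT CFC (60.8 CPM) but near the highest in CBP KIX/KIX CFC (77.0). In WT homecage it lay between its mates (73.5), and in CBP KIX/KIX homecage it was near the lowest (47.0). The CBP KIX/KIX homecage library highest in Ngb was the highest of its group in these markers (68.2). Fewer cells with Ngb and less Ngb RNA per cell cannot be told apart in bulk tissue.

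**Figure D1:**
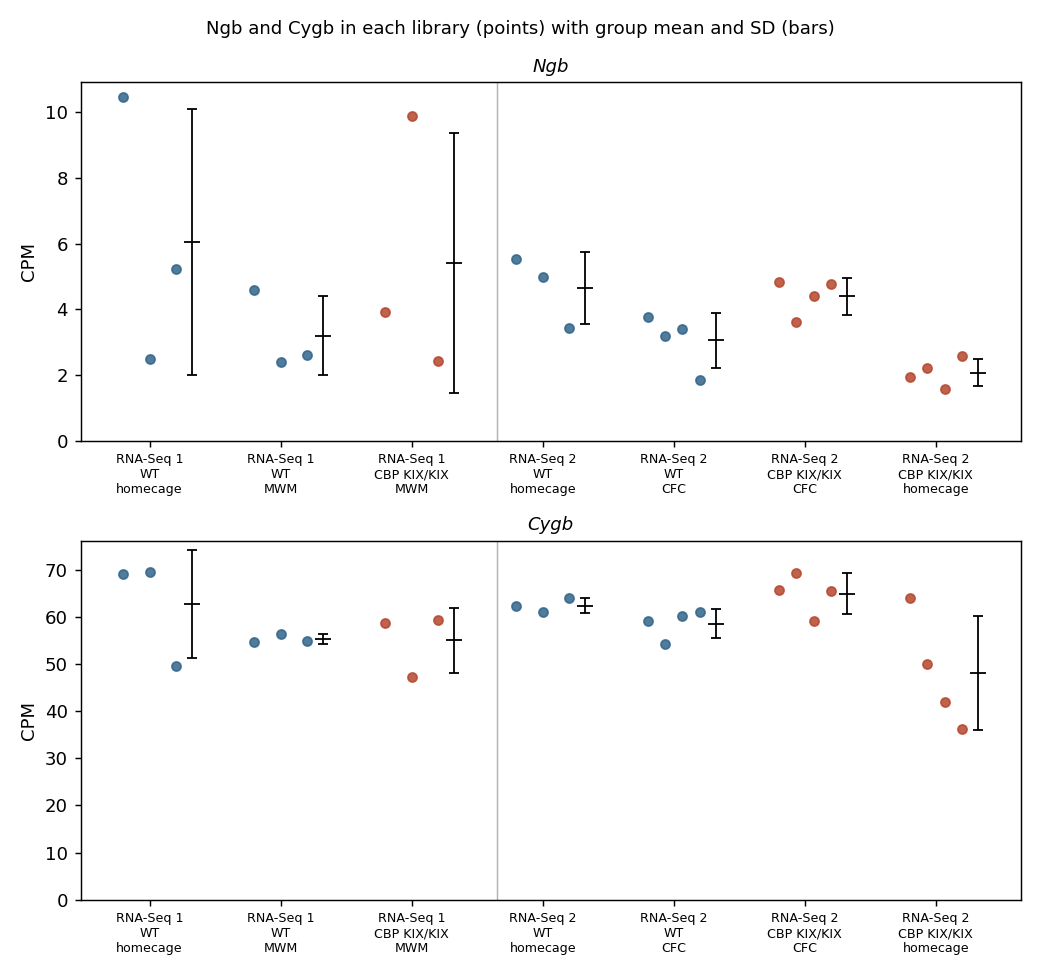
Ngb and Cygb in the 7 groups, as CPM scaled by upper quartile (y axis) by group (x axis). Each point is 1 library, and bars give the group mean and SD.

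In RNA-Seq 1, where Ngb had not been chosen for a pattern, it was 10.5, 2.49 and 5.22 CPM in WT homecage, 4.58, 2.39 and 2.61 in WT MWM and 3.91, 9.89 and 2.44 in CBP KIX/KIX MWM libraries. The groups overlapped, with 1 high library each in WT homecage and CBP KIX/KIX MWM. The log2 fold change was -0.92 for learning in WT (SE 0.51, adjusted p 0.512, 3 of 3 libraries) and 0.74 for genotype after MWM (SE 0.51, adjusted p 0.813, 2 of 3), and neither passed the test. Without single libraries the first ran from -1.28 to -0.29 and the second from -0.01, without CBP KIX/KIX MWM 2, to 1.10. The thalamic and hypothalamic markers summed to 99.7, 44.5 and 86.6 CPM in WT homecage, 64.5, 49.6 and 51.4 in WT MWM and 51.4, 66.5 and 63.8 in CBP KIX/KIX MWM libraries, and the WT homecage libraries high in Ngb were high in them. Of the 10 tested, 8 were lower for learning in WT, with a median of -0.48 against -0.07 over all genes, and by genotype after MWM 4 were higher and 6 lower, with a median of -0.14 against -0.02.

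Of 18257 genes ranked over the 15 RNA-Seq 2 libraries, those most like Ngb included Zcchc12 (r = 0.86), Cartpt (0.85), Atp6ap1l (0.84) and Opn3 (0.80). Over the 9 RNA-Seq 1 libraries these genes gave 0.90, 0.36, 0.32 and -0.38. Ranked over RNA-Seq 1 instead, the first were Slc10a4 (0.97), Ecel1 (0.96), Adra2b (0.96), Gm27202 (0.95) and Zic1 (0.95), with 0.15, 0.11, 0.49, 0.48 and 0.56 over RNA-Seq 2. Zic1 in RNA-Seq 1 was 82.6, 11.0 and 46.4 CPM in WT homecage, 22.2, 7.95 and 9.92 in WT MWM and 16.5, 44.4 and 9.04 in CBP KIX/KIX MWM libraries. In RNA-Seq 2 it was 23.9 to 37.8 CPM in WT homecage and 21.0 to 36.8 in WT CFC libraries. It was 26.2 to 36.7 CPM in CBP KIX/KIX CFC and 10.7 to 48.7 in CBP KIX/KIX homecage libraries. The RNA-Seq 1 libraries high in Ngb were high in Zic1, which follows from its choice by likeness to Ngb over those libraries. Such likeness may follow how the tissue was dissected and was not tested. Thalamic and hypothalamic markers, 12 of 12 in the table, summed to 44.5 to 99.7 CPM in RNA-Seq 1 and 43.3 to 77.9 in RNA-Seq 2, with Prkcd the most abundant per kb (6.72 CPM per kb).

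Cygb in RNA-Seq 2 was 62.3, 61.0 and 64.0 CPM in WT homecage, 59.1, 54.2, 60.2 and 61.0 in WT CFC, 65.8, 69.4, 59.2 and 65.6 in CBP KIX/KIX CFC and 64.1, 50.1, 41.9 and 36.2 in CBP KIX/KIX homecage libraries. The low values were those of CBP KIX/KIX homecage libraries 2, 3 and 4, below all 12 others (54.2 to 69.4), while homecage library 1 lay among the WT libraries. Learning in CBP KIX/KIX gave a log2 fold change of 0.42 (SE 0.12, adjusted p 0.166, 4 of 4 libraries) and the interaction 0.52 (SE 0.18, adjusted p 0.950), which did not pass the test. With the 3 libraries left out these were 0.02 and 0.12, against a single homecage library. DESeq2 called the first (0.42, adjusted p 0.0382, 4 of 4 libraries), and over the alternatives its adjusted p ran from 0.00217 to 1.0. Without CBP KIX/KIX homecage 1 edgeR called learning in CBP KIX/KIX (0.59, adjusted p 0.00217, 4 of 4) and the interaction (0.68, adjusted p 0.0406), the latter running from 0.0406 to 1.00 over the alternatives. Genotype in homecage gave -0.37 (SE 0.16, adjusted p 0.798, 3 of 4) and 0.03 with the 3 libraries left out, and genotype after CFC 0.15 (SE 0.12, adjusted p 1.00, 4 of 4) and 0.15 with them left out.

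In RNA-Seq 1, Cygb was 69.2, 69.5 and 49.6 CPM in WT homecage, 54.6, 56.5 and 54.9 in WT MWM and 58.7, 47.2 and 59.4 in CBP KIX/KIX MWM libraries. WT homecage library 3 lay below the WT MWM libraries and its mates above them. Learning in WT gave -0.18 (SE 0.13, adjusted p 0.604, 3 of 3 libraries), and -0.33 without WT homecage 3 (adjusted p 0.0409, 3 of 3, range over the alternatives 0.0409 to 0.923). With both experiments pooled it was -0.12 (SE 0.04, adjusted p 0.114, 7 of 7), and -0.19 without that library (adjusted p 0.00585, 7 of 7, range 0.00585 to 0.810). In the groups of that comparison 6 of 6 pairs of WT homecage and WT trained libraries of the same number had r over 0.1 (0.112 to 0.496), and with these numbers as a block Cygb was called (-0.13, adjusted p 0.0366, 7 of 7). Genotype after MWM gave -0.01 (0.02 by TMM and 0.01 by DESeq2) and genotype after learning with both experiments pooled 0.08 (SE 0.03, adjusted p 0.218, 6 of 7). The genes most like Cygb over 24 libraries, with values centred within each experiment, were Abcc8 (r = 0.95), Jph4 (0.92), Echdc2, St3gal1 and Aqp11 (0.91 each), and over the 21 libraries without CBP KIX/KIX homecage 2, 3 and 4 they gave 0.82, 0.82, 0.74, 0.70 and 0.77.

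The 4 blood globins summed to 222, 367 and 172 CPM in WT homecage, 132, 121 and 235 in WT MWM and 93.1, 106 and 132 in CBP KIX/KIX MWM libraries of RNA-Seq 1. In RNA-Seq 2 they summed to 27.6, 39.5 and 28.6 in WT homecage, 38.2, 57.1, 26.7 and 29.0 in WT CFC, 31.6, 28.8, 52.0 and 38.7 in CBP KIX/KIX CFC and 28.4, 27.4, 46.5 and 30.1 in CBP KIX/KIX homecage libraries. In RNA-Seq 1 the WT homecage libraries were the highest group by mean (254 ± 101) and the CBP KIX/KIX MWM the lowest (111 ± 20.04), but both overlapped with WT MWM (163 ± 62.5). In RNA-Seq 2 all groups overlapped, with 1 high library in each group. As a share of all counts the blood globins were 0.00943% to 0.0334% in RNA-Seq 1 and 0.00267% to 0.00579% in RNA-Seq 2.

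**Figure D2:**
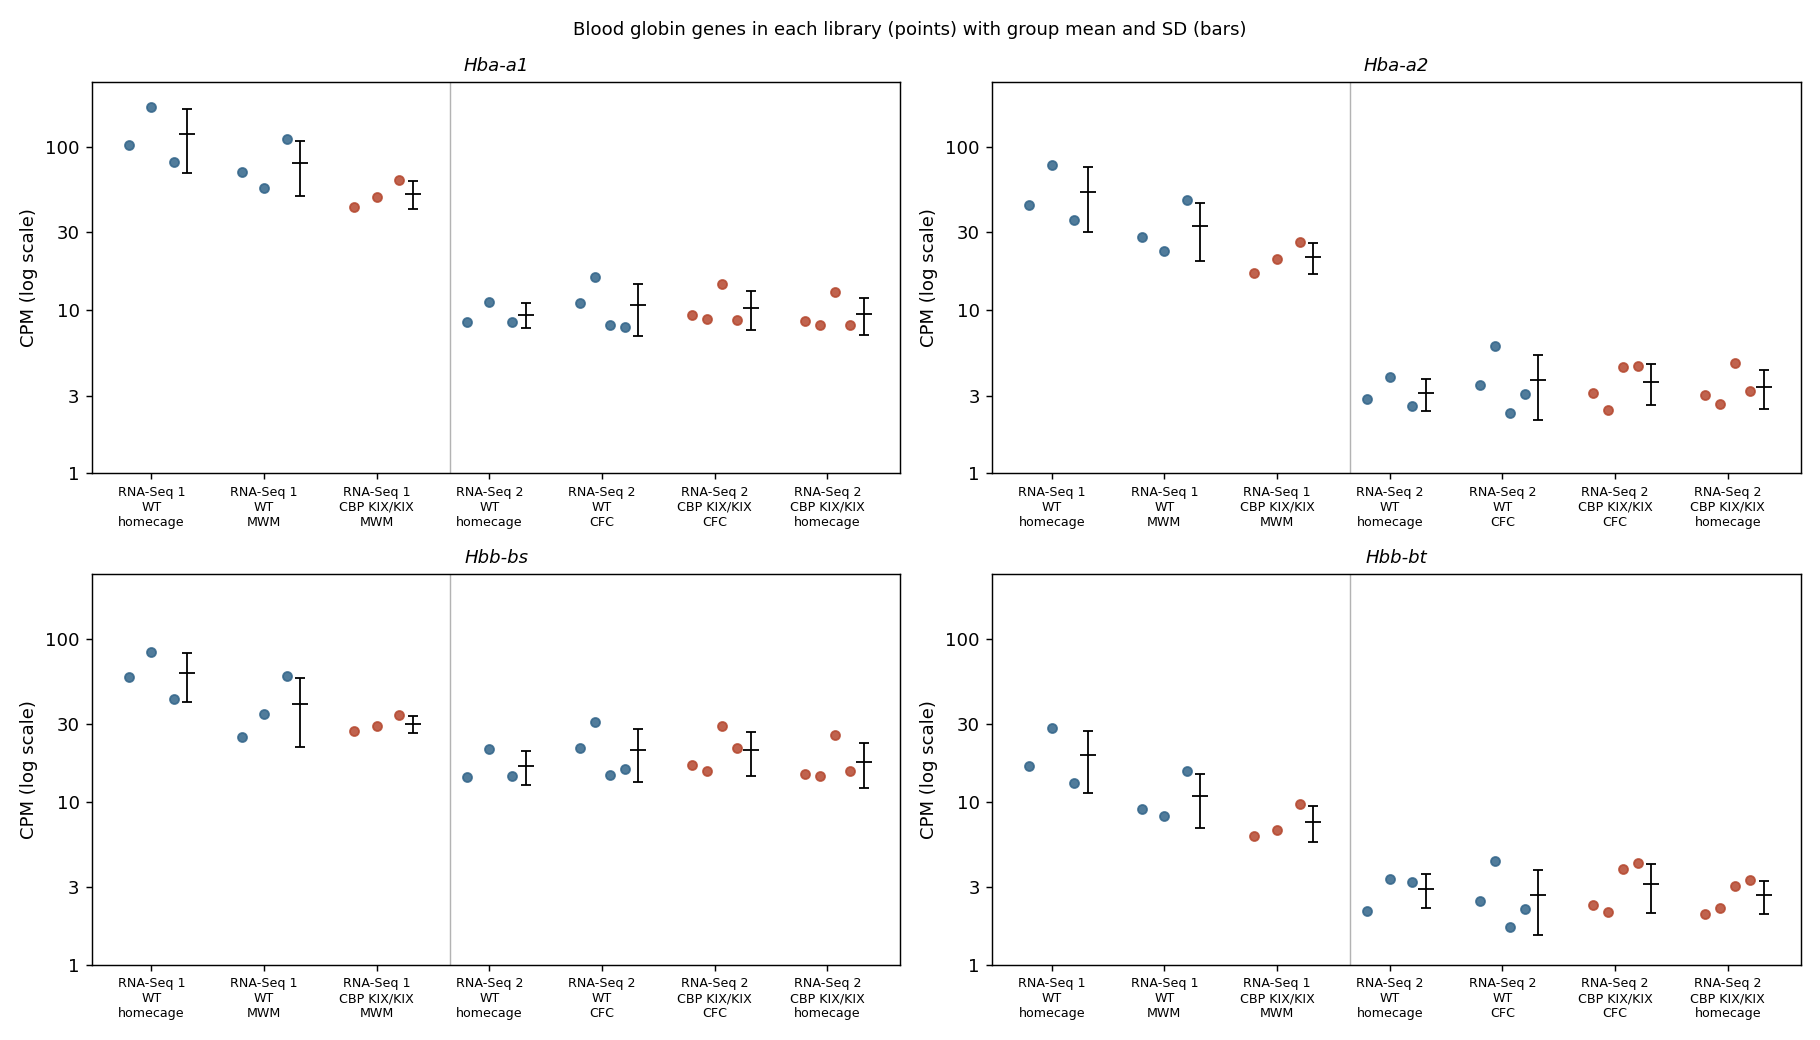
Blood globins in each library, as CPM scaled by upper quartile (y axis, log scale) by group (x axis). Each point is 1 library, and bars give the group mean and SD.

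The alpha-globins over the beta-globins gave a ratio of 1.80 to 2.91 in RNA-Seq 1 and 0.519 to 0.701 in RNA-Seq 2, with no overlap. Hba-a1 over Hba-a2 was 2.24 to 2.52 and 1.91 to 3.59, and Hbb-bs over Hbb-bt 2.74 to 4.42 and 4.44 to 8.64. The difference between the experiments cannot be assigned to library type, run or tissue. Within each experiment the blood globins moved together, with r to Hbb-bs of 0.92 and 0.94 for Hba-a1, 0.93 and 0.93 for Hba-a2 and 0.94 and 0.73 for Hbb-bt over the 9 and 15 libraries. Outside the globins, those most like Hbb-bs over 24 libraries centred within each experiment, with r without CBP KIX/KIX homecage 2, 3 and 4 in brackets, were Tctn2 at 0.82 (0.85), the erythroid gene Alas2 at 0.80 (0.78), Dnaaf5 at 0.80 (0.83), Elmo3 at 0.78 (0.77) and Slc5a6 at 0.77 (0.81).

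For learning in WT in RNA-Seq 1 the log2 fold change was -0.60 for Hba-a1 (SE 0.28, adjusted p 0.459), -0.68 for Hba-a2 (SE 0.29, adjusted p 0.421), -0.63 for Hbb-bs (SE 0.27, adjusted p 0.430) and -0.82 for Hbb-bt (SE 0.28, adjusted p 0.339), each in 3 of 3 libraries. Their median was -0.66 against -0.07 over all genes. Without single libraries Hba-a1 ran from -0.93 to -0.20 and Hba-a2 from -1.04 to -0.28. Hbb-bs ran from -1.05 to -0.35 and Hbb-bt from -1.16 to -0.43. Hbb-bt was 16.5, 28.3 and 12.97 CPM in WT homecage and 9.04, 8.18 and 15.4 in WT MWM libraries, which overlapped. It was called without WT homecage 3 (-1.05, adjusted p 0.0298, 3 of 3) and without the filter on low counts (-0.80, adjusted p 0.0222, 3 of 3), and ran from 0.0222 to 0.752 over the alternatives. Genotype after MWM gave -0.62, -0.62, -0.39 and -0.53 for Hba-a1, Hba-a2, Hbb-bs and Hbb-bt (adjusted p 0.813 and 3 of 3 libraries for each). Hbb-bs went to 0.02 without WT MWM 3. Without single libraries Hba-a1 ran from -0.82 to -0.29, Hba-a2 from -0.83 to -0.27 and Hbb-bt from -0.76 to -0.20.

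With both experiments pooled, genotype after learning gave -0.39 for Hba-a1 (SE 0.16, adjusted p 0.198, 6 of 7 libraries) and -0.44 for Hba-a2 (SE 0.17, adjusted p 0.171, 5 of 7). It gave -0.22 for Hbb-bs (adjusted p 0.600, 5 of 7) and -0.26 for Hbb-bt (adjusted p 0.520, 5 of 7). Without single libraries these ran from -0.50 to -0.20, -0.55 to -0.22, -0.30 to -0.05 and -0.34 to -0.07 in this order. Learning in WT gave -0.21 (adjusted p 0.615, 5 of 7), -0.26 (adjusted p 0.574, 5 of 7), -0.14 (adjusted p 0.739, 5 of 7) and -0.45 (adjusted p 0.314, 6 of 7) in the same order. In RNA-Seq 2 the median over these 4 genes was 0.03 for genotype in homecage, 0.23 for learning in WT, 0.18 for learning in CBP KIX/KIX, -0.05 for genotype after CFC and -0.09 for the interaction. With CBP KIX/KIX homecage libraries 2, 3 and 4 left out these medians were -0.16, 0.23, 0.36, -0.06 and 0.09. None of them passed the test there, with adjusted p of at least 0.764 and 1 to 3 of 4 libraries on the side of the change. In all, edgeR called 0 of the 47 member tests, with 12 (25.5%) at an unadjusted p under 0.05 and 1 by DESeq2, while over all genes 16814 of 182165 tests (9.23%) had an unadjusted p under 0.05. The member tests share libraries and the paralogs share reads, so they are not independent. With a replicate block it called Cygb for pooled learning in WT, where 4.14% of all genes were called, and Hba-a1 (-0.31, adjusted p 0.00847, 6 of 7, range over the alternatives 0.00847 to 0.567) and Hba-a2 (-0.31, adjusted p 0.0240, 5 of 7, range 0.0240 to 0.581) for pooled genotype after learning, where 12.9% were. In the latter only 3 of 7 pairs of the same number had r over 0.1, with 0 of 3 in RNA-Seq 1. Among the 47 edgeR tests with all libraries, the filter and no block, the lowest adjusted p was that of Cygb for pooled learning in WT (-0.12, adjusted p 0.114, 7 of 7). Other settings without the block gave lower values, down to 0.00217 for Cygb by edgeR (learning in CBP KIX/KIX without CBP KIX/KIX homecage 1).

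**Figure D3:**
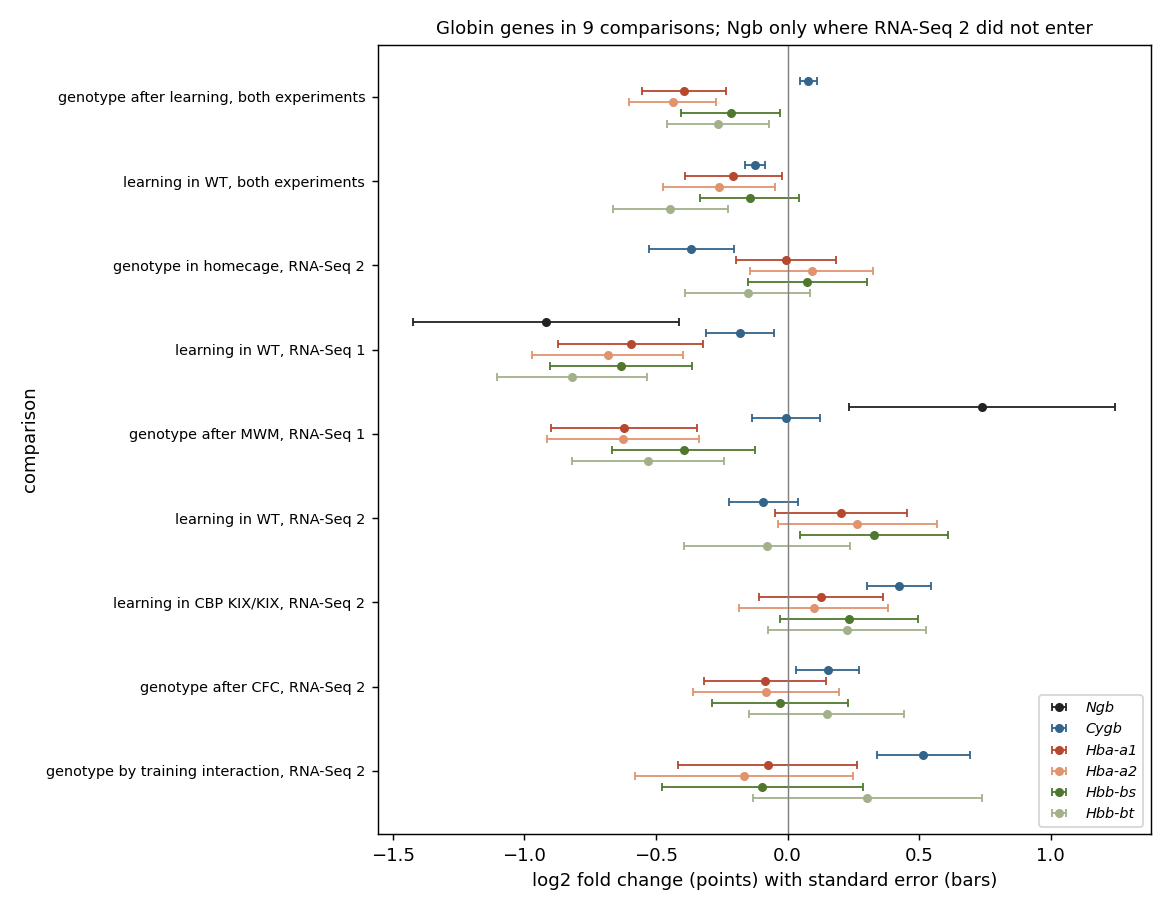
Log2 fold changes of the members (x axis) by comparison (y axis) from edgeR. Each point is 1 gene and each bar its standard error, and Ngb is shown for RNA-Seq 1 only.

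The promoters of the alpha-globin Hba-a1 and of both beta-globins are shown because these genes moved together across libraries. They are the 250 bases before the RefSeq start on GRCm38.p6, and the starts of the GENCODE M21 gene models lie within these windows. Capitals mark the GATA core GATAA, which reads TTATC on the other strand and was present in 22.6% of all 32851 promoters, and the box CCAAT, which reads ATTGG on the other strand and was present in 33.8%. They also mark the box CACCC, or GGGTG on the other strand, present in 52.0%, and the stretch ATATAA, or TTATAT on the other strand, present in 9.1%. Both strands were searched. Hba-a1 is at chr11:32283422-32283671 on the plus strand, Hbb-bs at chr7:103827929-103828178 and Hbb-bt at chr7:103813924-103814173 on the minus strand. Each had 1 GATA core and 1 stretch like a TATA box, with 1, 1 and 3 of the CCAAT box and 2, 1 and 3 of the CACCC box. In Hbb-bt, 1 reverse CCAAT box adjoins a forward one, and no motifs overlap.
Hba-a1: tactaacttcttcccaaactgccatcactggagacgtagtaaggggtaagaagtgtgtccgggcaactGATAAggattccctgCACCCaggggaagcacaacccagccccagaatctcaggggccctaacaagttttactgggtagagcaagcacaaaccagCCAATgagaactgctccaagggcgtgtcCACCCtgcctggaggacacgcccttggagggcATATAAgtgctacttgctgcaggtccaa
Hbb-bs: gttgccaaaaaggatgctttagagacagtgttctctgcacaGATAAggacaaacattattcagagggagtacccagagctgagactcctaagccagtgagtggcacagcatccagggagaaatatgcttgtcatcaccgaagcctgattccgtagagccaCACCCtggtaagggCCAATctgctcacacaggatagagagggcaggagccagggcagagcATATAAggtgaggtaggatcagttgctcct
Hbb-bt: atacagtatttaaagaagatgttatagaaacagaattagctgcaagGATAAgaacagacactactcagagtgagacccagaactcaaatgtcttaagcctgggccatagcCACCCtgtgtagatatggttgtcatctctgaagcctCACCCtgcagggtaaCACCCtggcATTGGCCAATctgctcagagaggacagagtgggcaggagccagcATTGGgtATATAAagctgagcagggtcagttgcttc
Hba-a2 was 100% identical to Hba-a1 over 247 aligned bases, and Hbb-bt 77.4% to Hbb-bs over 239. The CREB half-site TGACG, which reads CGTCA on the other strand and was present in 17.8% of promoters, had 0 matches in the 4 globin promoters. A match describes the sequence and does not show binding. The promoters of Ngb and Cygb were not analysed here.

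Of the erythroid markers, 15 of 16 were in the table, summing to 45.1 to 61.5 CPM in RNA-Seq 1 and 86.8 to 95.0 in RNA-Seq 2, with Bpgm the most abundant per kb (13.03 CPM per kb). Most of that sum was Bpgm (26.9 to 32.1 and 53.0 to 60.8 CPM) and Slc25a37 (9.34 to 16.1 and 27.7 to 34.7 CPM), and Rhag was at or under the floor in every library. Alas2 was 7.21, 14.3 and 8.79 CPM in WT homecage, 7.24, 5.56 and 9.34 in WT MWM and 4.30, 4.66 and 6.02 in CBP KIX/KIX MWM libraries, and 0.932 to 1.88 CPM in RNA-Seq 2. Slc4a1 was 0.762 to 2.63 CPM in RNA-Seq 1 and 0 to 0.159 in RNA-Seq 2. Leukocyte and platelet markers, 10 of 10 in the table, summed to 4.89 to 6.80 and 6.13 to 10.1 CPM, with Itga2b the most abundant per kb (0.598 CPM per kb). Blood content itself was not tested.

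By genotype after learning pooled, 5 erythroid markers were tested, 1 higher and 4 lower with a median of -0.18 against -0.01 over all genes, and Slc25a37 fell (-0.18, SE 0.05, adjusted p 0.0452, 7 of 7 libraries). For learning in WT pooled the split was again 1 and 4 with a median of -0.02 against -0.03. The 3 leukocyte and platelet markers tested had medians of -0.00 and -0.18.

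Vascular and other non-neuronal markers were present in every library. Endothelial markers, 9 of 9 in the table, summed to 137 to 260 CPM in RNA-Seq 1 and 251 to 346 in RNA-Seq 2 (Cldn5 28.9 CPM per kb), pericyte markers, 8 of 8, to 160 to 249 and 211 to 292 (Vtn 28.0), and fibroblast and meningeal markers, 8 of 8, to 105 to 179 and 124 to 384 (Igf2 8.96). Interneuron markers, 10 of 10, summed to 842 to 960 and 1103 to 1436 CPM (Sst 209 CPM per kb). Choroid plexus markers, 8 of 8, varied most, from 120 to 2455 and from 30.5 to 4653 CPM (Ttr 917 CPM per kb). Ttr was 5.17, 1723 and 3.62 CPM in WT homecage libraries of RNA-Seq 2 and 12.4, 4293, 1740 and 1858 in WT CFC libraries, so choroid plexus differed within groups as well as between them. Cell content was not tested.

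By genotype after learning pooled, the median was 0.04 for endothelial, -0.07 for pericyte, -0.01 for fibroblast and meningeal, -0.54 for choroid plexus, 0.20 for thalamic and hypothalamic and -0.08 for interneuron markers. The experiments went opposite ways for choroid plexus markers (0.46 after MWM with 8 of 8 higher, -0.54 after CFC with 8 of 8 lower) and for thalamic and hypothalamic markers (-0.14 and 0.18). They did so too for endothelial (-0.12 and 0.08) and pericyte markers (-0.18 and 0.02). Sst (-0.19, adjusted p 0.0451, 7 of 7 libraries), Lhx6 (-0.22, adjusted p 0.0302, 6 of 7) and Cck (-0.10, adjusted p 0.0420, 6 of 7) fell. For learning in WT pooled the medians were -0.10, -0.11, -0.17, 1.65, -0.24 and -0.02 in the same order. Cldn5 fell (-0.49, adjusted p 0.0291, 7 of 7), and Folr1 (1.51, adjusted p 0.0475, 4 of 7) and Aqp1 (1.79, adjusted p 0.0463, 4 of 7) rose. By sign alone, the pooled log2 fold changes of endothelial markers were below 0 for 9 of 9 genes, 1 of which passed the test. Those of choroid plexus markers were above 0 for 8 of 8, 2 of which passed. Within each experiment 8 of 9 endothelial markers were below 0. Choroid plexus markers had a median of 0.29 in RNA-Seq 1 (7 above 0 and 1 below) and 1.71 in RNA-Seq 2 (8 above 0).

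Of the other globin genes, 9 of 9 were in the table, summing to 1.12 to 1.91 CPM in RNA-Seq 1 and 1.94 to 3.82 in RNA-Seq 2, with Hbq1a the most abundant per kb (0.418 CPM per kb). Hbb-bh0, Hbb-bh1 and Hbb-bh2 had 0 counts in all libraries, and Hba-x and Hbb-y were at or under the floor in every library. The myoglobin gene Mb was 0.116 to 0.359 and 0.164 to 0.518 CPM, Adgb 0.507 to 1.28 CPM and at most 2.72 CPM. The 4 that could be tested had medians of -0.01 by genotype after learning pooled and -0.36 for learning in WT pooled, and edgeR called none of them.

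Genes of heme synthesis and breakdown, 15 of 15 in the table, summed to 286 to 311 CPM in RNA-Seq 1 and 407 to 436 in RNA-Seq 2 (Hmox2 19.9 CPM per kb). By genotype after learning pooled 7 were higher and 8 lower (median -0.03), and for learning in WT pooled 5 and 10 (-0.03). Genes of the hypoxia-inducible pathway, 18 of 18, summed to 990 to 1089 and 1327 to 1596 CPM (Pgk1 112 CPM per kb), with 7 higher and 11 lower by genotype (median -0.02) and 12 and 6 for learning (0.04). No gene of these lists passed the test in edgeR in any of the 9 comparisons.

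The groups held 3 or 4 libraries each, the Ngb counts were low, and Ngb in RNA-Seq 2 was described only. The pattern there rests on CBP KIX/KIX homecage libraries, of which 3 of 4 stood apart in other genes, and Ngb in library 1, which did not, was 1.93 CPM. Blood globins, choroid plexus markers and thalamic and hypothalamic markers differed between libraries and could not be separated from genotype or training. Bulk RNA does not show which cells held the transcripts, reads shared by paralogs leave the Hba and Hbb splits uncertain, and protein was not measured.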

How the data were processed

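The authors deposited raw read counts per gene, made with STAR (version not given in the sources used here), SAMtools 1.6 and featureCounts 1.4.4 on mm10 and GRCm38. Genes were matched to GENCODE M21 by Ensembl identifier, 51633 of 51826 with 193 not matched. Named genes were matched by symbol; promoters came from RefSeq on GRCm38.p6 (4 of 6 members). Counts were tested with edgeR 4.0.16 quasi-likelihood on upper-quartile normalized counts after filterByExpr, with a Benjamini-Hochberg adjusted p under 0.05 over all tested genes. Pooled comparisons used 4 (genotype) and 3 (learning) RUVr factors. CPM are counts per 1000000, scaled by upper quartile. Counts of libraries on the side of a change compare each library with the mean of the other group. Alternatives were TMM, DESeq2 1.42.0, no filter, a replicate block, leaving out each library, no RUVr factors and GC normalization over 10 bins. Leaving out CBP KIX/KIX homecage libraries 2, 3 and 4, and ranking Ngb likeness over RNA-Seq 1, were chosen after seeing the data. The members and the 13 gene lists (hippocampal, activity-induced, other globin, erythroid, leukocyte and platelet, endothelial, pericyte, fibroblast and meningeal, choroid plexus, thalamic and hypothalamic, interneuron, heme and hypoxia genes) were chosen with earlier results of these data known. Likeness is Pearson r of log2 CPM with a prior count of 2, centred within each experiment where both were used, and part of it is not reported here. R 4.3.3, Python 3.11.15, pandas 2.3.3, numpy 2.4.6, matplotlib 3.10.9 and Biopython 1.88 were used.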

Additional observations from a re-analysis of the deposited data

Results flagged for a closer look

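In the groups of 4 libraries, 18 sets of values, each of 1 gene in 1 group, were examined for a library far from its mates. The Dixon ratio was used, with a limit that about 1 in 20 such sets reaches by chance. The sets are not independent, since the paralogs share reads and moved together. Hba-a1 in CBP KIX/KIX CFC library 3 was 14.4 CPM (ratio 0.880), Hba-a1 in the library labelled CBP KIX/KIX homecage 3 was 13.01 CPM (0.909) and Hbb-bs in that library 25.7 CPM (0.904), each the highest of its group.

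Ngb moved in opposite directions in the 2 genotypes of RNA-Seq 2, with a mean after CFC over homecage of 0.657 in WT and 2.12 in CBP KIX/KIX, and a mean in CBP KIX/KIX over WT of 1.44 after CFC and 0.446 in homecage. This difference was not tested, since Ngb was chosen for it. Cygb gave 0.939 in WT and 1.35 in CBP KIX/KIX after CFC over homecage. Its interaction was tested (log2 fold change 0.52, adjusted p 0.950) and was 0.12 with CBP KIX/KIX homecage libraries 2, 3 and 4 left out.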

How the results depend on the processing

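The number of genes by genotype after learning pooled was 610 in edgeR and became 933 with DESeq2, 308 without the filter on low counts, 2778 with a replicate block, 4 without RUVr factors and 261 with GC normalization. For learning in WT pooled, 231 became 135 with TMM, 862 with DESeq2, 143 without the filter, 912 with a replicate block, 9 without RUVr factors and 64 with GC normalization. Genotype in homecage went from 2 to 59 with DESeq2, 10 without the filter, 0 with a replicate block and 0 with CBP KIX/KIX homecage libraries 2, 3 and 4 left out. Learning in WT in RNA-Seq 1 went from 3 to 80 with DESeq2, 131 without the filter and 1 with a replicate block, and genotype after MWM from 0 to 7 with DESeq2 and 7 without the filter. Learning in WT in RNA-Seq 2 went from 0 to 20 with the libraries left out. Learning in CBP KIX/KIX went from 0 to 300 with DESeq2, 55 without the filter, 4 with a replicate block and 8 with the libraries left out, genotype after CFC from 2 to 4 with DESeq2 and the interaction from 0 to 1 with DESeq2.

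The share of called genes that were higher was 41.6% by genotype after learning pooled, against 28.0% with GC normalization, 22.7% without the filter and 25.0% without RUVr factors (1 of 4 genes). For learning in WT pooled it was 38.5%, against 65.2% with TMM, 71.0% with DESeq2, 55.2% without the filter, 71.9% with GC normalization and 100% without RUVr factors (9 of 9 genes). The cause was not tested.

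The replicate block takes libraries of the same number within an experiment as belonging together. In RNA-Seq 2, 16 of 21 same-number pairs of different groups had r over 0.1 (mean 0.222, from -0.140 to 0.523) against a mean of -0.0745 for other pairs, and in RNA-Seq 1, 3 of 9 did (mean -0.0115). The labels do not say that numbers pair libraries. The numbers did go together for learning in WT, with 3 of 3 pairs in RNA-Seq 1 (0.112 to 0.185, against -0.143 to 0.0037 for other pairs) and 3 of 3 in RNA-Seq 2 (0.231 to 0.496). For learning in CBP KIX/KIX 4 of 4 pairs had r over 0.1 (0.175 to 0.370, against -0.327 to 0.259 for other pairs). The block moved the number of genes called there from 0 to 4. For genotype after learning 3 of 7 did (-0.164 to 0.523), with 0 of 3 in RNA-Seq 1. With the block, Hba-a1 (-0.31, adjusted p 0.00847, 6 of 7 libraries, range over the alternatives 0.00847 to 0.567) and Hba-a2 (-0.31, adjusted p 0.0240, 5 of 7, range 0.0240 to 0.581) were called by genotype after learning pooled, and Cygb (-0.13, adjusted p 0.0366, 7 of 7, range 0.00585 to 0.810) for learning in WT pooled.

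Among fold changes, Cygb by genotype in homecage reversed from -0.37 to 0.034, Hba-a2 from 0.09 to -0.075 and Hbb-bs from 0.07 to -0.17 with the 3 libraries left out. In the interaction Hba-a1 went from -0.08 to 0.055 and Hbb-bs from -0.10 to 0.13. Cygb by genotype after MWM went from -0.01 to 0.019 with TMM and 0.011 with DESeq2, and Hba-a1 by genotype in homecage from -0.01 to 0.0043 without the filter and 0.027 with a replicate block.

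Leaving out each library in turn gave 233 to 1022 genes by genotype after learning pooled, 36 to 2274 for learning in WT pooled, 0 to 7 by genotype in homecage, 0 to 2418 for learning in WT in RNA-Seq 1, 0 to 0 by genotype after MWM, 0 to 0 for learning in WT in RNA-Seq 2, 0 to 999 for learning in CBP KIX/KIX, 2 to 3 by genotype after CFC and 0 to 63 for the interaction. Fold changes that reversed in this way ran as follows. By genotype in homecage Hba-a1 ran from -0.19 to 0.15, Hba-a2 from -0.10 to 0.30 and Hbb-bs from -0.16 to 0.30. After MWM by genotype Ngb ran from -0.012 to 1.10, Cygb from -0.065 to 0.092 and Hbb-bs from -0.64 to 0.018. For learning in WT pooled Hba-a1 ran from -0.37 to 0.042, Hba-a2 from -0.48 to 0.066 and Hbb-bs from -0.30 to 0.046, and in RNA-Seq 2 Hba-a1 from -0.060 to 0.36, Hba-a2 from -0.086 to 0.47 and Hbb-bt from -0.44 to 0.079. For learning in CBP KIX/KIX Hba-a1 ran from -0.071 to 0.30 and Hba-a2 from -0.023 to 0.28. After CFC by genotype Hba-a1 ran from -0.28 to 0.18, Hba-a2 from -0.24 to 0.27, Hbb-bs from -0.24 to 0.24 and Hbb-bt from -0.020 to 0.51. In the interaction Hba-a1 ran from -0.28 to 0.18, Hba-a2 from -0.37 to 0.18 and Hbb-bs from -0.32 to 0.17.

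Without the scaling factor, 42 of 42 group means moved by less than the SD of the group.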
